A study of Mus musculus with 4 samples.

Results

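The mouse genes Zfp900 to Zfp999 were examined in E14 embryonic stem cells (ESCs) that lack the kinase Pim3. Members were all genes of the count table whose symbol is Zfp9 followed by 2 further digits, which gave 64 of 55418 genes. Expression played no part in this rule, but the group itself was chosen with earlier results of these data known. RNA-seq libraries came from 2 samples of wild-type (WT) ESCs and from 2 Pim3-/- clones made with CRISPR/Cas9, with 1 library each. The E14 cells, whose strain is given as 12910la, grew on gelatin in serum medium with LIF, the cytokine that keeps ESCs undifferentiated, and the groups differed by genotype alone as labelled. Each Pim3-/- library was 1 clone, the labels do not tell which clone carries which replicate number, and a clone's own history cannot be told apart from the loss of Pim3.

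Proteins of this kind carry arrays of C2H2 zinc fingers, in which a pair of cysteines and a pair of histidines hold a zinc ion and the loop between them reads bases of DNA. Many also carry a KRAB domain, which recruits the co-repressor TRIM28 and, through it, the histone methyltransferase SETDB1. In ESCs this machinery is known for silencing transposable elements (TEs), and the rodent genes often lie in clusters of recent copies that resemble one another. The comparison of Pim3-/- with WT libraries asked how these genes were expressed after the loss of Pim3.

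The gene table held 22029427 to 25668307 counts per library. The count of Pim3, a gene that was edited and not removed, was 4392 and 4953 in WT and 4970 and 4804 in Pim3-/- libraries (log2 fold change -0.27, adjusted p = 0.251, and 0.19 with library totals), and it does not test the labels. Of 12 ESC markers all were expressed, at a summed level of 11484 and 10371 CPM (counts per 1000000, scaled by TMM factors) in WT and 7583 and 7400 CPM in Pim3-/- libraries. Of these markers Pou5f1, Nanog, Dppa5a and Utf1 fell, Klf4 rose, and 6 of the 12 had log2 fold changes above 0. These marker sums and calls are given with TMM scaling only, and library totals would make the falls smaller. The direction of Nanog is opposite to that in the paper, which reports higher Nanog in Pim3-/- ESCs by qPCR and western blot. For Oct4 (Pou5f1) and Sox2 the paper reports expression that was not disrupted. The 10 markers of the 2-cell-like (2C) state summed to 20.5 and 15.6 CPM in WT and to 182 and 52.8 CPM in Pim3-/- libraries, with 9 of them past the test. The 7 primitive endoderm markers summed to 2.98 and 5.12 CPM in WT and to 33.8 and 18.7 CPM in Pim3-/- libraries, with all 6 tested ones past it. Trophoblast markers (84.9 to 119 CPM) and fibroblast markers (20.5 to 25.6 CPM) overlapped between the groups in their sums, and 2 of 5 tested trophoblast markers rose. In whole cultures, a smaller share of cells that express a gene and less RNA per cell cannot be told apart, and the part of these other cell states in the results was not tested. Counts per gene are given below as deposited, and TMM factors of 0.828 and 0.883 for the WT and 1.17 for both Pim3-/- libraries enter each CPM and fold change. After TMM scaling, the 18444 tested genes had a median log2 fold change of 0.07. Scaling by library totals gave 0.52, so that the log2 fold change of each gene moves up by about that difference. With library totals 15 members, none of them called, turned from below to above 0, of which 3 lay in the chromosome 4 cluster and 4 in the chromosome 17 cluster.

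Zinc finger genes of this group were expressed at low levels in ESCs. Enough counts for a test were found for 55 members, and the other 9 were too low. Among the 9 were Zfp957 and 5 genes of the chromosome 2 cluster, Zfp965, Zfp966, Zfp967, Zfp968 and Zfp969, which had at most 3 counts in every library. Zfp931, Zfp970 and Zfp971, of the same cluster, had 1 to 11 counts. Per 1000 exonic bases, the mean WT level of the tested members ran from 0.0497 to 18.0 CPM with a median of 0.984 CPM, against 3.18 CPM for all tested genes with an annotated position, and 49 of the 55 lay under that value. A typical member had few reads, with a median of 54 and 65 counts in the WT and 53 and 59 counts in the Pim3-/- libraries. The median standard error (SE) of a log2 fold change was accordingly 0.38 for members and 0.26 for all genes.

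More members were lower than higher in Pim3-/- ESCs, yet few changes passed the test. By the quasi-likelihood test of edgeR, with p-values adjusted over all tested genes after Benjamini and Hochberg, 9 members fell and 1 rose at an adjusted p under 0.05. These 10 of 55 make 18.2%, while the background was 33.8% of all genes in either direction, 17.6% higher and 16.2% lower. The share of members that fell, 16.4%, was thus close to the background, and the share that rose, 1.82%, was far under it. The log2 fold change was below 0 for 37 of the 55, with a median of -0.19 against 0.07 for all genes. With library totals 22 of 55 were below 0 and the median was 0.26, against 0.52 for all genes. Scaling moves every gene by about the same amount, so it could hardly alter the distance between these medians. With these totals 3 members fell and 4 rose, and 4 of the 10 calls stayed, while 41.7% of all genes passed in either direction. At the 3-fold threshold used in the study, 1 member rose and 1 fell, against a background of 8.47% and 1.38%. The values of the groups did not overlap for 26 members that were lower and 6 that were higher in Pim3-/- libraries, where the background was 34.2% and 38.3% of all genes. The other 336 genes named Zfp and a number gave 304 tested genes, of which 62 rose and 14 fell, with a median log2 fold change of 0.18. Where 1 library was left out, the spread of its group was taken from the other group. Far fewer genes then passed without a WT library and more without a Pim3-/- library, among members as among all genes. The median log2 fold change of members was -0.40 without WT replicate 1 and -0.34 without WT replicate 2, against 0.05 and 0.07 for all genes. It was -0.20 without Pim3-/- replicate 1 and -0.39 without Pim3-/- replicate 2, against 0.06 and 0.05.

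Zfp961 was the most highly expressed member per exonic length, and it fell in Pim3-/- ESCs. It lies outside the clusters, at chr8:71951038-71993792 on the plus strand of GRCm38, and codes for a protein with 11 fingers by the pattern used here. It had 1535 and 1709 WT counts against 1090 and 1015 Pim3-/- counts. Both Pim3-/- libraries were below both WT libraries, at 40.1 ± 1.04 CPM (SD, n = 2) compared with 77.8 ± 3.31 CPM (SD, n = 2), or 9.25 against 18.0 CPM per 1000 exonic bases. The log2 fold change was -0.96 (SE 0.16, adjusted p = 0.00652, edgeR), and with library totals it was -0.50 (adjusted p = 0.0426). No other member had as many reads. The summed level of all 64 members was 339 and 334 CPM in WT and 222 and 232 CPM in Pim3-/- libraries, a log2 ratio of -0.57, and without Zfp961 the ratio was -0.47.

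Zfp932 is known as a KRAB zinc finger repressor of endogenous retroviruses, a role it shares with its neighbour Gm15446. It lies at chr5:109996521-110010411 and carries 15 fingers. It had 189 and 182 WT counts against 95 and 96 Pim3-/- counts. The groups did not overlap, and the log2 fold change was -1.30 (SE 0.27, adjusted p = 0.0116, edgeR). Of the 75-base stretches of its transcripts, 24.9% also occur in Gm15446, which had 51 and 43 WT counts against 42 and 18 Pim3-/- counts and did not pass the test (log2 fold change -0.996, adjusted p = 0.147). How reads that match both genes were counted is not stated.

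Zfp954, at chr7:7114690-7121488, was the third gene outside the clusters that fell. It had 356 and 426 WT counts against 266 and 277 Pim3-/- counts, which is 18.7 ± 0.16 and 10.4 ± 0.55 CPM (mean and SD of 2 libraries). The groups were apart, with a log2 fold change of -0.85 (SE 0.20, adjusted p = 0.0166, edgeR). With library totals the value was -0.40 and it no longer passed (adjusted p = 0.164).

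Zfp964, at chr8:69654479-69666982 in the chromosome 8 cluster, was the member that rose, and with library totals Zfp936, Zfp938 and Zfp951 did so too. Zfp964 was hardly expressed in WT ESCs, with 6 and 10 counts, and had 41 and 41 counts in Pim3-/- libraries. Both clones were thus above both WT samples, at 1.56 ± 0.04 CPM (SD, n = 2) compared with 0.377 ± 0.09 CPM (SD, n = 2). The log2 fold change was 2.02 (SE 0.48, adjusted p = 0.0172, edgeR), or 4.07-fold. Even so its level in Pim3-/- ESCs was only 0.206 CPM per 1000 exonic bases. Its cluster neighbours Zfp930 and Zfp963 had log2 fold changes of -0.78 (adjusted p = 0.102) and 0.05 (adjusted p = 0.925) and did not pass. Almost all of the Zfp964 transcript is its own, since 99.2% of its 75-base stretches occur in no other gene.

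**Figure D1:**
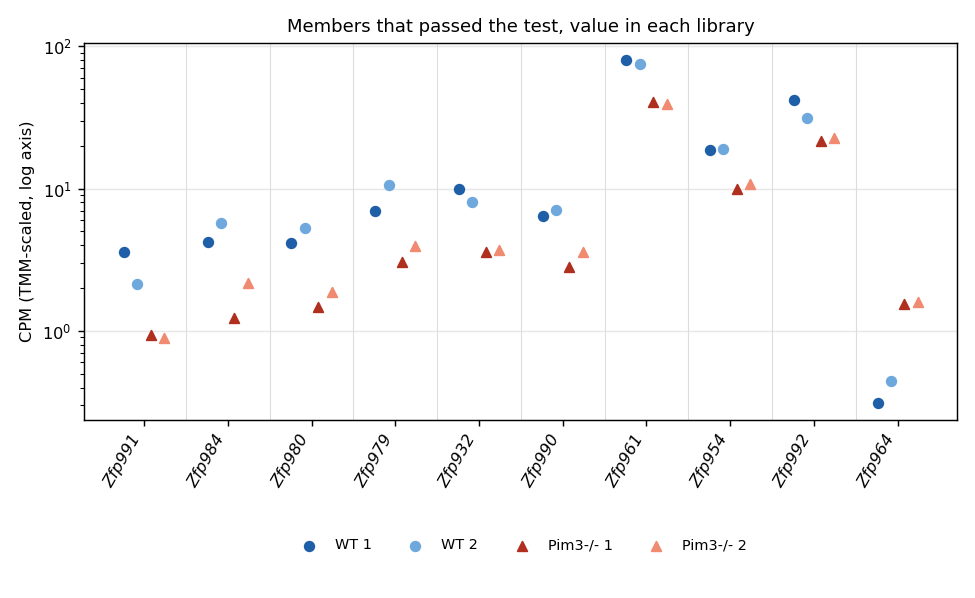
CPM (TMM-scaled, log axis) of the 10 members that passed the test, ordered by log2 fold change, with circles for the 2 WT and triangles for the 2 Pim3-/- libraries. In the 9 members on the left both triangles lie below both circles, and in Zfp964 on the right both lie above. Under scaling by library totals all 10 directions stayed and 4 passed the test.

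Most of the members that fell, 6 of 9, lay in a single stretch of chromosome 4. Members whose starts lay within 1000000 bases of the next were joined to clusters of at least 3, which placed 43 of the 64 in 5 clusters, on chromosomes 4, 17, 2, 7 and 8. The chromosome 4 cluster, at chr4:145510759-147848366, held 16 members, all tested. In it 14 members were lower, 6 fell and none rose, against 16.2% and 17.6% of all genes, with a median log2 fold change of -0.76, which is 0.83 below the median of all genes. With library totals 11 were lower, 1 fell and none rose, and the median was -0.31, while 41.7% of all genes passed in either direction. The distance to the median of all genes was again 0.83, which scaling could hardly alter, since it moves every gene by about the same amount. In 11 of the 16 the Pim3-/- libraries were below the WT libraries with no overlap, and in none were they above, where the background was 34.2% lower and 38.3% higher. Leaving out a library changed the number that fell in the same direction as the share of all genes that passed. The median of the cluster stayed between -1.13 and -0.67.

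The summed level of the chromosome 4 cluster was 95.4 and 91.7 CPM in WT libraries and 49.1 and 56.8 CPM in Pim3-/- libraries. Both clones were well below both WT samples, with means of 52.9 ± 5.42 and 93.6 ± 2.60 CPM (SD of 2 libraries) and a log2 ratio of -0.82. The order of the groups held with library totals (78.9 and 80.9 CPM in WT, 57.2 and 66.4 CPM in Pim3-/- libraries, log2 ratio -0.37). Without Zfp992, the gene with most reads in the cluster, the log2 ratio was -0.89. With 2 libraries a group, the smallest p of an exact permutation test is 0.333, so these sums carry none.

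**Figure D2:**
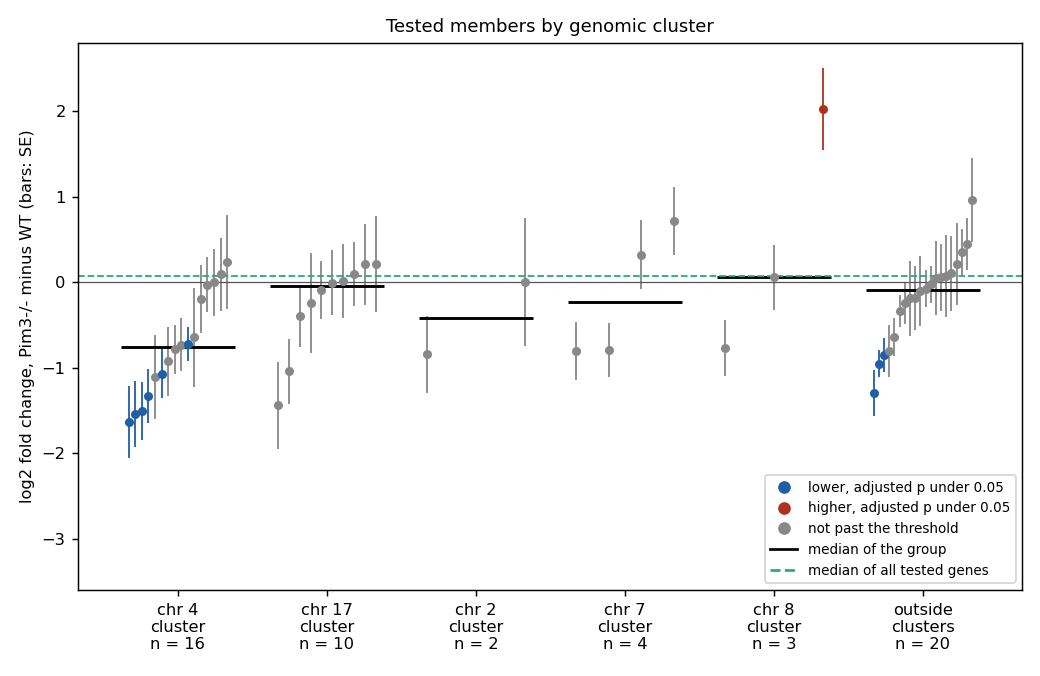
Log2 fold change of each of the 55 tested members, Pim3-/- minus WT, by cluster, with SE bars, the median of each group as a black line and the median of all tested genes (0.07) as a dashed line. The median of the chromosome 4 cluster is -0.76 and those of the other groups run from -0.42 to 0.05. With library totals every point moves up by about the same amount, and the median of the chromosome 4 cluster is -0.31 while those of the others run from 0.03 to 0.50.

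The 6 genes of this cluster that fell were Zfp991, Zfp984, Zfp980, Zfp979, Zfp990 and Zfp992. Zfp991, at chr4:147132038-147180579, changed by the largest factor among all members that fell. It had 69 and 48 WT counts against 25 and 23 Pim3-/- counts. The groups were apart, and the log2 fold change was -1.64 (SE 0.43, adjusted p = 0.0237, edgeR), or 3.11-fold lower. Zfp984, at chr4:147753974-147809788, had 81 and 129 WT counts against 33 and 56 Pim3-/- counts. Both clones were again below, with a log2 fold change of -1.54 (adjusted p = 0.0212). Zfp980, at chr4:145670685-145704441, had 79 and 120 WT counts against 39 and 48 Pim3-/- counts, without overlap and with a log2 fold change of -1.50 (adjusted p = 0.0153).

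Zfp979, at chr4:147611937-147642513, had 133 and 239 WT counts against 81 and 101 Pim3-/- counts. Its WT samples differed widely from each other, yet both lay above the clones once scaled, and the log2 fold change was -1.33 (adjusted p = 0.0176, edgeR). Zfp990, at chr4:145510759-145539188, had 122 and 159 WT counts against 75 and 92 Pim3-/- counts, a log2 fold change of -1.07 (adjusted p = 0.0262). Zfp992, at chr4:146449023-146470292, was the second most highly expressed member per exonic length, at 8.01 CPM ± 1.67 (SD, n = 2) per 1000 bases in WT. It had 801 and 704 WT counts against 576 and 583 Pim3-/- counts, and both clones were below, with a log2 fold change of -0.72 (adjusted p = 0.0276). With library totals Zfp980 alone of the 6 passed (adjusted p = 0.043), at a log2 fold change of -1.06, while Zfp992 was at -0.26 (adjusted p = 0.306).

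The other 10 members of the cluster did not pass. Zfp978, which is among the 6 highest members per exonic length at 3.44 CPM ± 0.28 (SD, n = 2) in WT, had 80 and 106 WT counts against 79 and 61 Pim3-/- counts (log2 fold change -0.73, adjusted p = 0.103). The members Zfp986, Zfp989, Zfp988, Zfp982 and Zfp933 overlapped between the groups, with log2 fold changes from -0.20 to 0.24, of which those of Zfp982, Zfp988 and Zfp989 turned from below to above 0 with library totals. Zfp933 lies at the end of the cluster and the other 4 lie between genes that fell, as the plot of the cluster in chromosomal order shows. The 4 tested protein-coding genes of the region that are not members, Gm21411, Rex2, Zfp534 and Zfp600, had log2 fold changes from -0.99 to -0.56. In each of them the Pim3-/- libraries were below the WT libraries, and none passed the test. Of all 25 tested genes of the stretch that are not members, 6 rose and 1 fell, against 17.6% and 16.2% of all genes, and these 7 were processed pseudogenes. Gm13034, Gm13136, Gm13169, Gm13228, Gm13231 and Gm13241 rose, by 1.29 to 2.61 on the log2 scale (edgeR adjusted p from 0.00876 to 0.0459). They had few reads, with 1 to 33 counts in the WT libraries. How much of their sequence also occurs in other genes was not examined. Gm13034, for example, had 10 and 9 WT counts against 57 and 71 Pim3-/- counts. Gm13237 fell, with 140 and 213 WT counts against 48 and 73 Pim3-/- counts (log2 fold change -1.85, adjusted p = 0.00803). Over all 5 clusters, 56 of the 198 genes that are not members were tested, of which 7 (12.5%) rose and 3 (5.36%) fell, against 17.6% and 16.2% of all genes. With 1 library left out, the number of such genes that rose changed in the same direction as the share of all genes that passed.

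**Figure D3:**
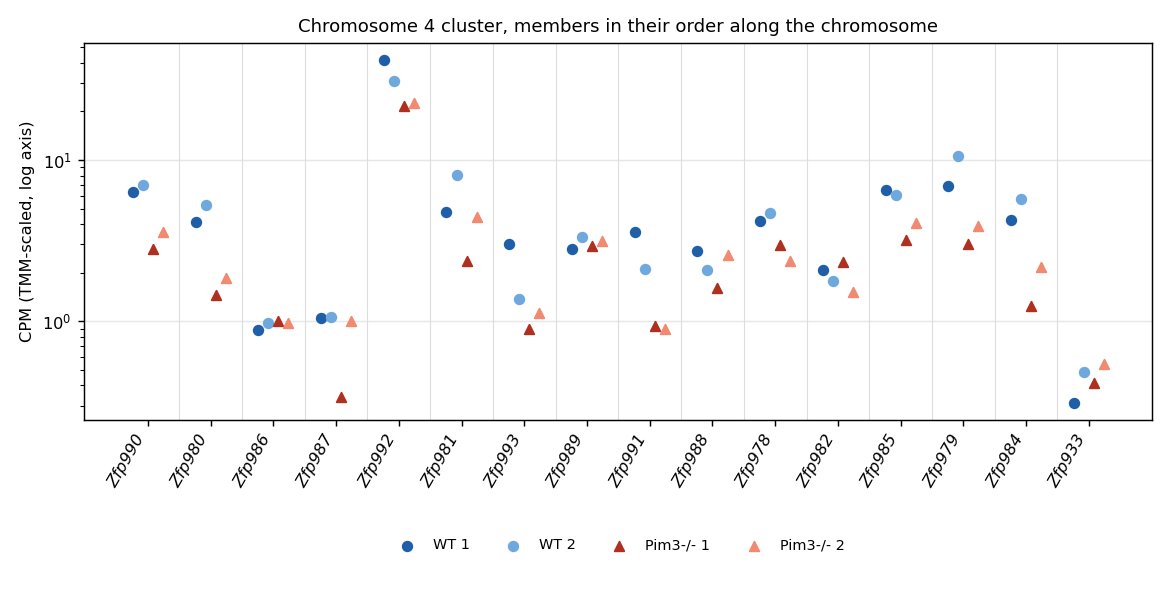
CPM (TMM-scaled, log axis) of the 16 members of the chromosome 4 cluster in their order along the chromosome, with circles for the 2 WT and triangles for the 2 Pim3-/- libraries. Both triangles lie below both circles in 11 members, while Zfp986, Zfp989, Zfp988, Zfp982 and Zfp933 overlap, and with library totals 11 of the 16 log2 fold changes are below 0.

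The first fingers of several proteins of the cluster are nearly the same. A search of the translated coding sequences for the C2H2 pattern (cysteine, 2 to 4 residues, cysteine, 12 residues, histidine, 3 to 5 residues, histidine) found at least 1 finger in 60 of the 63 protein-coding members, with a median of 11 and at most 21, and no match in Zfp935, Zfp957 and Zfp972. The coding bases of the first finger are shown for 5 of the genes of the cluster that fell and for Zfp993, to let their likeness be seen. Zfp961 and Zfp964 are shown for contrast. The genes were picked by hand, without Zfp979, which also fell, and without the other members of the cluster that did not pass. Whether the likeness differs between genes that fell and the rest of the cluster was not tested. They are from GENCODE M21 transcripts of GRCm38, with the codons of the zinc-binding cysteines and histidines in capitals.
Zfp991: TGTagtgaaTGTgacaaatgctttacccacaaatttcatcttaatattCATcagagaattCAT
Zfp993: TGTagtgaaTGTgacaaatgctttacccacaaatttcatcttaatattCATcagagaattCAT
Zfp992: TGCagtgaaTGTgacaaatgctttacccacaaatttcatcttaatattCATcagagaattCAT
Zfp984: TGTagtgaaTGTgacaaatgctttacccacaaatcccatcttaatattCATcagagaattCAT
Zfp990: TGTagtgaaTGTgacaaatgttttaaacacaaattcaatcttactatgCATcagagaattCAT
Zfp980: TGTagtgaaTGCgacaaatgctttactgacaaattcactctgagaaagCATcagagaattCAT
Zfp961: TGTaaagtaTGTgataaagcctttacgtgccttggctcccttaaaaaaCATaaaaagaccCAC
Zfp964: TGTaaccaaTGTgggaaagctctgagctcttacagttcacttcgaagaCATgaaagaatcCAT
All are 63 bases long. Position by position, Zfp993 shares 63 of them with Zfp991, Zfp992 shares 62, Zfp984 shares 61, Zfp990 shares 56 and Zfp980 shares 52, whereas Zfp961 shares 35 and Zfp964 shares 34.

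Likeness of this degree bears on how the reads can be assigned. Of the 75-base stretches of the transcripts, between 18.3% and 99.9% (median 52.2%) occurred in no other gene for members of the chromosome 4 cluster. For Zfp991 it was 24.1%, for Zfp980 43.9%, for Zfp984 59.1%, for Zfp992 65.5%, for Zfp979 76.4% and for Zfp990 88.4%. Zfp991 shared 60.8% of its stretches with the pseudogene Znf41-ps, and Zfp980 shared 46.6% with Rex2. Zfp993, whose first finger has the same bases but which has 2 fingers against 11 in Zfp991, had 58 and 31 WT counts against 24 and 29 Pim3-/- counts and did not pass (log2 fold change -1.11, adjusted p = 0.116, edgeR). Calls for single genes of this kind are therefore uncertain. For the members of the cluster with over 50% of their stretches in no other gene, the summed level was 73.0 and 70.8 CPM in WT and 36.9 and 42.8 CPM in Pim3-/- libraries, a log2 ratio of -0.85. Among the 44 tested members of all groups that met the same limit, 1 rose and 7 fell, with a median log2 fold change of -0.14.

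The region upstream was alike as well for several genes that fell. RefSeq start sites of GRCm38.p6 within 500 bases of the annotated gene start were found for 50 of the 64 members and for 8 of the chromosome 4 cluster. The windows from 250 bases before to 50 after the start site are shown for 3 genes that fell, with each CG in capitals. They are chr4:145670447-145670746 on the plus strand for Zfp980, and chr4:147642459-147642758 and chr4:147809739-147810038 on the minus strand for Zfp979 and Zfp984.
Zfp980: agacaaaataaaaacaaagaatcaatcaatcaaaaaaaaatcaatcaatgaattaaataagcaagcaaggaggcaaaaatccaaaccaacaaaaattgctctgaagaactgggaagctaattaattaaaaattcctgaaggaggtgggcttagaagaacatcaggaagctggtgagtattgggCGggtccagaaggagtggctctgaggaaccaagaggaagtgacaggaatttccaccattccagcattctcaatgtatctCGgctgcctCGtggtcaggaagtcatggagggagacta
Zfp979: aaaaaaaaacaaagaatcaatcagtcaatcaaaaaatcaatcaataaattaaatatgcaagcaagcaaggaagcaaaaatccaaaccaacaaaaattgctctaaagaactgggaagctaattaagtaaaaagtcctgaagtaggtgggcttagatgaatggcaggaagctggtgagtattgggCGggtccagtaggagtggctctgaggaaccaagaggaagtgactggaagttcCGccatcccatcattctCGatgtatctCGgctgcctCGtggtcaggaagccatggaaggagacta
Zfp984: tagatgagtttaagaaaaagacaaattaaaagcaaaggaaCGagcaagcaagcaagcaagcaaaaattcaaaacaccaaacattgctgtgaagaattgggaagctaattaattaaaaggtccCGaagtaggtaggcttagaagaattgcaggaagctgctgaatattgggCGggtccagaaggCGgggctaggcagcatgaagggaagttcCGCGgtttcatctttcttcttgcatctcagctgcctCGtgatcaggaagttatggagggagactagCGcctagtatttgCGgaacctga
In a global alignment, Zfp980 and Zfp979 shared 274 bases, which is 91.3% of the 300, and Zfp984 shared 74.3% with Zfp980 and 74.7% with Zfp979. The windows of Zfp982, Zfp985, Zfp987 and Zfp988, which did not pass the test, were 82.3% to 89.0% identical to that of Zfp979. Zfp933, at the end of the cluster, shared 49.0% to 54.0% with the other 7. The windows of the cluster held 3 to 9 CG, with a median of 5, against a median of 7 over all 32851 windows. The letters of 3 motifs were searched on both strands. CCAAT occurred in 7 of the 8 windows, in 38 of the 50 members' windows and in 37.4% of all windows. GGGCGG occurred in 6 of the 8, in 18 of the 50 and in 35.7% of all. TATAAA occurred in none of the 50 and in 13.6% of all. These matches describe the letters of the windows and no factor was measured on them.

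With TMM scaling, none of the members on the chromosome 17, 7 and 2 clusters passed the test. With library totals 1 of them, Zfp936 on chromosome 7, rose. On chromosome 17, 10 members were tested and none passed, with a median log2 fold change of -0.05 (0.40 with library totals) and 7 of them overlapping between the groups. Their transcripts were mostly their own, with 90.2% to 100% of stretches in no other gene. Zfp947 had the lowest value there, with 16 and 19 WT counts against 7 and 9 Pim3-/- counts (log2 fold change -1.44, adjusted p = 0.0624, edgeR). On chromosome 7, 4 members were tested and none passed. The groups did not overlap in any of them, 2 lower and 2 higher, as in 34.2% (lower) and 38.3% (higher) of all genes. Zfp975 and Zfp976 were lower (log2 fold changes -0.81 and -0.79, adjusted p = 0.104 and 0.089), and Zfp977 and Zfp936 were higher (0.32 and 0.71, adjusted p = 0.559 and 0.194). The difference between clusters itself was not tested.

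The chromosome 2 cluster had few counts. Of its 10 members, 2 were tested, Zfp972 and Zfp973, and neither passed. Its summed count was 71 and 80 in WT and 63 and 66 in Pim3-/- libraries. Zfp972 had 35 and 39 WT counts against 34 and 18 Pim3-/- counts, and Zfp973 had 17 and 9 against 7 and 26. Its median of 19.5% of stretches in no other gene was the lowest of the 5 clusters. The first fingers of Zfp966, Zfp967, Zfp968 and Zfp969 have the same 63 coding bases, of which 37 match Zfp991.
Zfp966: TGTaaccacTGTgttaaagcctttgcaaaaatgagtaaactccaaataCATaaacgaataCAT
For Zfp967 and Zfp969 no 75-base stretch was their own, so that a low count cannot be told apart from reads given to a copy or left uncounted. A count of 0 allows up to 0.112 to 0.157 CPM per library, from counting error alone.

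**Figure D4:**
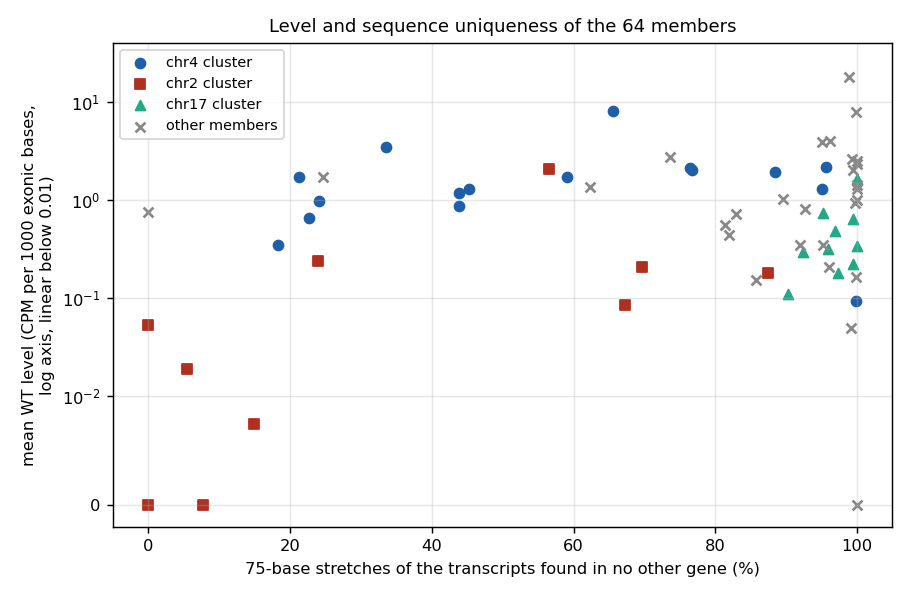
Mean WT level of each of the 64 members (CPM per 1000 exonic bases, log axis that is linear below 0.01) against the percentage of 75-base stretches of its transcripts that occur in no other gene. Members of the chromosome 2 cluster with few stretches of their own lie at the bottom left, while members of the chromosome 4 cluster with 18.3% to 45.2% lie between 0.346 and 3.44.

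The members with the highest WT CPM that did not pass were Zfp941, Zfp940, Zfp956 and Zfp949. Zfp941 had 353 and 442 WT counts against 392 and 396 Pim3-/- counts, with a log2 fold change of -0.34 (SE 0.19, adjusted p = 0.194, edgeR) that turned to 0.11 with library totals. Its groups did not overlap, at 18.4 and 19.5 CPM in WT and 14.7 and 15.4 CPM in Pim3-/- libraries. Zfp940 had 301 and 362 WT counts against 239 and 294 Pim3-/- counts (log2 fold change -0.64, SE 0.22, adjusted p = 0.0578). At 15.72 and 15.99 CPM in WT and 8.95 and 11.4 CPM in Pim3-/- libraries its groups did not overlap either, and it passed with the size factors of DESeq2 (adjusted p = 0.0476) and without either Pim3-/- library (adjusted p = 0.02 and 0.000109). Zfp956 had 224 and 256 WT counts against 327 and 267 Pim3-/- counts, and its groups overlapped (log2 fold change -0.02, SE 0.22, adjusted p = 0.941, and 0.43 with library totals). Zfp949 had 199 and 226 WT counts against 253 and 254 Pim3-/- counts (log2 fold change -0.08, SE 0.22, adjusted p = 0.811, and 0.38 with library totals). Of the 45 tested members that did not pass, 30 were within 0.5 of 0 on the log2 scale.

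Genes of the machinery that KRAB zinc finger proteins recruit were described beside the members. Of 31 such co-repressor genes, all tested, none rose and 9 fell (29.0%, against the 16.2% of all genes), with a median log2 fold change of -0.32. With library totals 7 rose and 3 fell, while 41.7% of all genes passed in either direction. With 1 library left out, the number that fell changed in the same direction as the share of all genes that passed. Those that fell include the heterochromatin protein genes Cbx1 and Cbx3, the histone deacetylase gene Hdac1 and the histone methyltransferase gene Ehmt2, with log2 fold changes from -0.98 for Hdac1 to -0.67 for Ehmt2. Trim28, the central co-repressor, had 39564 and 46172 WT counts against 39314 and 27938 Pim3-/- counts and did not pass (log2 fold change -0.68, SE 0.24, adjusted p = 0.0586), although it did with the DESeq2 Wald test (adjusted p = 0.00743), without a filter (adjusted p = 0.0414) and without Pim3-/- replicate 1 or 2 (adjusted p = 3.14e-05 and 0.0316). Setdb1 had 1902 and 2449 WT counts against 2876 and 3405 Pim3-/- counts and did not pass either (0.21, SE 0.18, adjusted p = 0.391). With library totals, however, Setdb1 rose by 0.66 (adjusted p = 0.0268, edgeR), while Trim28 was at -0.23 and did not pass (adjusted p = 0.413). The value of Setdb1 was 0.33 without Pim3-/- replicate 1 and 0.04 without Pim3-/- replicate 2.

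Of 15 zinc finger repressors with known targets, 2 rose and 2 fell, 13.3% each against 17.6% and 16.2% of all genes. One that fell was the member Zfp932, and no gene of this list passed without WT replicate 1 or without WT replicate 2. Zfp809, which silences murine leukaemia virus-like elements, rose, with 80 and 91 WT counts against 209 and 213 Pim3-/- counts (log2 fold change 0.97, SE 0.26, adjusted p = 0.0247, edgeR). Zfp352, also on the 2C marker list, rose by 1.49 on the log2 scale (adjusted p = 0.0331). Zfp110 fell by 0.58 (adjusted p = 0.0376). The imprinting regulators Zfp57 and Zfp445 did not pass, at log2 fold changes of -0.63 (adjusted p = 0.0666) and 0.03 (adjusted p = 0.937), but Zfp57 passed with the DESeq2 Wald test (adjusted p = 0.0218) and without Pim3-/- replicate 1 or 2 (adjusted p = 3.25e-08 and 0.0298). The sign of Zfp445 turned with the size factors of DESeq2.

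TE subfamilies were counted in the same libraries and scaled within their own table, where library totals moved the median log2 fold change of all subfamilies from 0.00581 to 0.186. Of 828 tested subfamilies, 28 (3.38%) rose and 44 (5.31%) fell, and of 10 endogenous retrovirus subfamilies chosen to stand beside the members, 3 rose and 3 fell. Those of the ETn type fell, MMETn-int by 1.40, ETnERV-int by 1.30 and RLTRETN_Mm by 1.46 on the log2 scale (edgeR adjusted p = 0.000231, 0.000231 and 0.000166). MERVL-int, the element of the 2C state, rose by 1.89, RLTR6-int by 1.12 and MMVL30-int by 0.71 (adjusted p = 0.000265, 0.00288 and 0.0244). IAPEz-int had 1731 and 2160 WT counts against 2654 and 2461 Pim3-/- counts and did not pass (log2 fold change -0.20, adjusted p = 0.186). None of the 10 passed without WT replicate 1 or without WT replicate 2. Any relation between members and TEs was not tested.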

How the data were processed

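Raw counts of genes and of TE subfamilies were deposited by the authors and used unchanged. The submitters' processing notes name Trim Galore, STAR and featureCounts with GRCm38, while the paper's methods name Cutadapt and Hisat2 with mm10, so the program behind the counts is uncertain. Use of the strand and of reads with several locations is not stated, which leaves near-identical, overlapping and antisense genes uncertain. All 64 members were located in GENCODE M21.

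Genes were filtered with filterByExpr (minimum count 10, minimum total 15), scaled by TMM factors and compared with edgeR 4.0.16's quasi-likelihood test in R 4.3.3, with Benjamini-Hochberg adjustment over the 18444 tested genes, without a term for replicate number. A member was called at an adjusted p under 0.05. TEs were tested likewise. Alternatives were DESeq2 1.42.0 (size factors, Wald test), library totals, other filters, a replicate block and each library left out. The method was tested on simulated counts.

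Members were taken by symbol alone, but this group of genes and the lists were chosen with earlier results of these data known. Named members were those called (up to 12 per direction), the 6 highest in WT CPM per 1000 exonic bases, the 4 highest in WT CPM among those not called, and those with at most 3 counts everywhere. From other lists, Trim28, Setdb1, Zfp809, Gm15446, Zfp57, Zfp445 and Pim3 were set to be named, and the other genes, Zfp930, Zfp947 and Zfp975 among them, were chosen after their values were seen. A first-finger or 75-base comparison used GENCODE transcripts. Levels are CPM, errors are SDs of 2 libraries, and p-values measure the spread between these samples.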

Additional observations from a re-analysis of the deposited data

How the results depend on the processing

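All 9 called decreases and the increase of Zfp964 kept their direction under every alternative in which the gene was tested. With library totals, counts of calls were, higher and lower, 4 and 3 for members (0 lower at 3-fold), 123 and 3 for other Zfp genes, 7 and 3 for co-repressor genes and 1 lower for repressors with known targets, 11 higher for genes inside the clusters, and 5 higher for the chosen TEs. Of all genes, 41.7% passed with these totals. Medians were 0.26 for members and -0.31 for the chromosome 4 cluster, and the log2 ratios of summed CPM -0.37 for that cluster and -0.12 for all members. With at least 10 counts in every library, 0 members rose, 0 passed at 3-fold in either direction, 1 co-repressor gene rose, 1 known repressor fell and 4 genes inside the clusters rose. With the Wald test 1 known repressor and 4 genes inside the clusters rose. Without a filter, medians minus that of all genes were -0.50 for members and -1.07 for the cluster. The sum of all members gave -0.61 with DESeq2 size factors and -0.47 without Zfp961. Sums under other settings were added after seeing the data.

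The replicate numbers do not pair the samples (correlation of same-numbered deviations 0.0196 for genes and 0.0158 for TEs). With the replicate block 11 members passed, Zfp981 being added, and 1 co-repressor gene rose.

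Leaving out each library in turn, members gave 0 to 3 higher and 0 to 19 lower calls (0 to 1 and 0 to 4 at 3-fold). Lists gave, higher and lower, 6 to 90 and 2 to 51 for other Zfp genes, 0 to 4 and 1 to 17 for co-repressor genes, 0 to 3 and 0 to 6 for known repressors, 0 to 13 and 0 to 19 for genes inside the clusters and 0 to 4 and 0 to 4 for the chosen TEs. The median of members ran from -0.40 to -0.20, its distance to all genes from -0.45 to -0.26, that of the chromosome 4 cluster from -1.13 to -0.67 and its distance from -1.18 to -0.73. Its summed log2 ratio ran from -0.93 to -0.72 and that of all members from -0.60 to -0.54. Where 1 library remains in a group, it is assumed to vary like the other group. The share of all genes that passed also fell without a WT library and rose without a Pim3-/- library.

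With library totals 15 of the 55 tested members, none of them called, turned sign. Among the genes named by rule, the signs that turned, none of a called gene, were Zfp941 (0.11), Zfp956 (0.43), Zfp949 (0.38) and Pim3 (0.19) with library totals, Zfp956 (0.0555) and Zfp949 (0.00492) with at least 10 counts in every library, Zfp956 leaving out each library in turn (-0.17 to 0.0753), and Zfp445 with DESeq2 size factors (-0.011), no filter (-0.00732), the Wald test (-0.0108) and leaving out each library in turn (-0.27 to 0.24). Few counts per member limit single calls.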
